A study of Mus musculus with 8 samples.

Results

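The genes described here belong to the insulin-like growth factor (IGF) system and were measured in undifferentiated and differentiated cultures of the mouse embryonic stem cell line TC1. They are the ligand gene Igf1, the receptor genes Igf1r, Igf2r and Insr, and the binding protein genes Igfbp2 to Igfbp7. The 10 genes were chosen by name from the 32780 genes obtained by summing transcripts, and all 10 were found. Total RNA of wild-type TC1 cells was sequenced before differentiation (day 0, labelled mESCs and control) and after 10 days of differentiation (day 10, labelled differentiated cells), with 4 libraries per day. No other genotype, agent or line was part of the comparison, and the labels name neither the differentiation protocol nor separate cultures, so the spread between libraries of a day may be technical.

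IGF1 and IGF2 are secreted growth factors that act through the IGF1 receptor and the insulin receptor, 2 closely related receptor tyrosine kinases that activate the PI3K and AKT pathway. The IGF2 receptor is a different kind of protein. It carries enzymes tagged with mannose 6-phosphate to lysosomes and takes up IGF2 for degradation. IGF binding proteins hold IGFs in the extracellular fluid and matrix, extend their lifetime and limit or deliver them to receptors, and proteases such as PAPP-A release the ligand by cutting them.

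The libraries held 11242568 to 15808039 estimated counts at day 0 and 13525255 to 17843651 at day 10. CPM is the estimated count scaled for library size, and TPM is scaled for transcript length as well. Both are given as mean ± SD over n = 4 libraries. Log2 changes are day 10 over day 0 ± SE, with p adjusted over all 15097 genes tested by edgeR's quasi-likelihood test. The day 0 label was met by its markers: 8 of 8 stem cell markers were detected, at a summed 4701 to 5297 TPM per day 0 library and 127 to 194 TPM at day 10, and 8 of 8 were called lower on counts. Klf4 was called with overlapping days (log2 -0.19 ± 0.07), was higher by TPM at day 10 (113 ± 10 against 95.5 ± 2.1) and made up most of the day 10 sum. At day 10 markers of several lineages were higher, 7 of 7 tested cardiomyocyte markers among them, so RNA of more than 1 lineage was present. Of all genes tested, 39.4% were called lower and 42.7% higher. In such bulk RNA, fewer cells of a type and less RNA per cell cannot be told apart.

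Between day 0 and day 10 the system changed from one in which Igfbp2 was the leading binding protein transcript to one led by Igfbp4 and Igfbp5, with all 3 receptors and the ligand Igf1 higher. Of the 10 genes, 9 passed the filter on low counts. Of these 8 rose and 1, Igfbp2, fell, with a median log2 change of 3.48 against 0.06 for all genes tested. The background was high, with 82.1% of all genes tested called, 42.7% higher and 39.4% lower, so being called is by itself common. Changes over 2-fold were rarer, at 24.1% of tested genes higher and 17.3% lower, and 8 of the 9 were higher by more than 2-fold. Values of day 0 and day 10 did not overlap for any of the 9, which was also so for 40.8% (higher) and 37.2% (lower) of all genes tested.

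**Figure D1:**
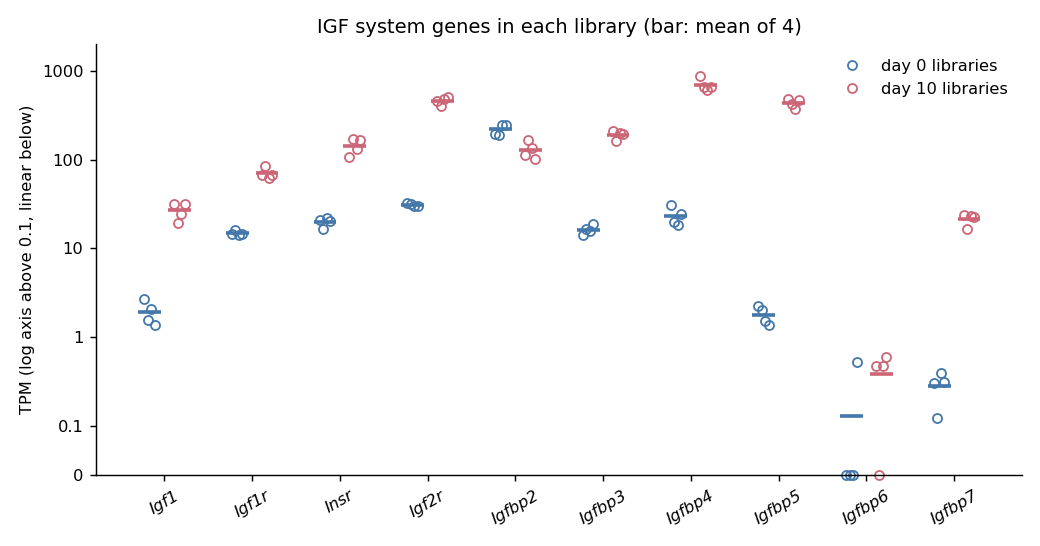
TPM of the 10 genes in each library, on a log axis above 0.1 and a linear one below, with circles for single libraries and bars for the mean of 4 libraries of a day. At day 10 every gene but Igfbp2 and Igfbp6 lies above all of its day 0 values, Igfbp2 lies below, and Igfbp6 stays under 1 TPM on both days.

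Igf1 (ENSMUSG00000020053, chromosome 10), the ligand of the IGF1 receptor, was low at day 0, with 2.12, 1.46, 2.19 and 1.64 CPM in libraries 1 to 4. At day 10 it was at 79.6, 48.9, 65.2 and 78.9 CPM. The lowest day 10 library, library 2, was still far above every day 0 library. The change was 5.22 ± 0.20 on the log2 scale (adjusted p = 1.08e-10). With the average effective transcript length as an offset it was 3.46 (adjusted p = 4.22e-08). The mean effective length of the gene was 1220 to 1758 bases in the day 0 libraries and 5018 to 5417 bases at day 10, where the long Igf1-202 held more of the counts. The day 0 level rests on 95 counts over 4 libraries, against 4174 at day 10.

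The other ligand, Igf2, an imprinted growth factor gene of fetal and extraembryonic tissue, moved further. It was at 8.22 to 11.1 CPM at day 0 and 4611 to 6804 CPM at day 10 (log2 9.28 ± 0.17, adjusted p = 4.13e-13). Per length, Igf2 exceeded Igf1 by 1.58 to 3.98 times in the day 0 libraries and by 122.2 to 178 times in the day 10 libraries. Both insulin genes, Ins1 and Ins2, had 0 counts on both days, which with a floor of 3 counts over the group allows up to 0.0573 CPM at day 0 and 0.0489 CPM at day 10. Of the 10 genes listed as ligands or as remaining receptors and binding proteins, Igf1 included, 5 were tested, 4 rose, 0 fell and 1, Igfbpl1, did not pass (adjusted p = 0.379), with a median log2 change of 5.22. Among all genes tested 42.7% rose and 39.4% fell. Insrr, which encodes a receptor related to the insulin receptor, was the other gene that rose beside the ligands and Igfbp1 (log2 1.89 ± 0.33, adjusted p = 0.000101).

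Igf1r (ENSMUSG00000005533, chromosome 7) encodes the tyrosine kinase receptor of both IGFs. It was at 71.9, 76.8, 76.7 and 72.9 CPM in the day 0 libraries and at 267, 336, 271 and 269 CPM at day 10. Library 2 of day 10 stood above the other day 10 libraries, and the groups were well apart. Igf1r rose by 1.94 ± 0.08 on the log2 scale (adjusted p = 3.24e-11). With the trend of counts on transcript length removed, its change was 1.09 (adjusted p = 5.80e-09).

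Insr (ENSMUSG00000005534, chromosome 8) encodes the insulin receptor. It was at 47.4, 45.7, 41.3 and 48.2 CPM at day 0 and at 154, 202, 165 and 175 CPM at day 10, with library 2 again the highest of its day. The rise was 1.93 ± 0.09 on the log2 scale (adjusted p = 8.70e-11), so on counts the point estimates of the 2 kinases differed by less than their SE. On TPM (pseudocount 0.1) the change of Insr was larger, at 2.83. A 551-nucleotide transcript labelled for nonsense-mediated decay, Insr-205, held 56.7 ± 10.1% of the gene's TPM at day 0 and 72.2 ± 4.1% at day 10, though only 6.04 ± 2.26% and 11.04 ± 2.25% of its estimated counts. The full-length Insr-201 alone was at 6.56 ± 0.67 TPM at day 0 and 32.5 ± 4.5 at day 10. Set against the full-length Igf1r-201, Insr-201 was at a ratio of 0.592 to 0.772 at day 0 and 0.642 to 0.678 at day 10. Summed over all transcripts the ratio of Insr to Igf1r was above 1 in every library, at 1.05 to 2.52, so which kinase transcript was more abundant depended on whether the short fragment was counted.

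The insulin receptor is known in 2 isoforms. Isoform B includes a small coding exon and isoform A, the form with higher affinity for IGF2, skips it. In GENCODE M21 (build GRCm38) this 36-base exon lies at chr8:3181702-3181737 on the minus strand, as exon 4 of the 672-base partial transcript Insr-203. The full-length Insr-201, with 21 exons, lacks it. The exon is printed because it is the one stretch that separates the isoforms, in capitals, between 15 bases of its neighbours on each side:
Insr-203 36-base exon: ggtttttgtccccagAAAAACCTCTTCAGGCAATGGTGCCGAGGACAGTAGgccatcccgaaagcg
Insr-203 held 0.459 ± 0.313% of the gene's counts at day 0 and 0.256 ± 0.086% at day 10, or 11.5 and 27.1 estimated counts in all. Since Insr-203 is a fragment, its TPM is the fairer measure against Insr-201. It was at 0.702 ± 0.482 TPM at day 0 and 1.83 ± 0.61 TPM at day 10, far below the 6.56 and 32.5 TPM of Insr-201. Reads outside the exon and its junctions fit both transcripts, so these splits are estimates.

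Igf2r (ENSMUSG00000023830, chromosome 17), the scavenger receptor of IGF2 and carrier of lysosomal enzymes, was the most abundant receptor transcript on both days. Its day 0 values were 181, 172, 168 and 175 CPM, within a narrow range. At day 10 they were 1957, 1615, 2037 and 2129 CPM, all several times the day 0 level, with library 2 the lowest. The rise was 3.48 ± 0.09 on the log2 scale (adjusted p = 2.97e-13), or 2.62 after removing the trend with transcript length. Per length, Igf2r exceeded Igf1r 2.12 ± 0.12 times at day 0 and 6.73 ± 1.41 times at day 10. The ratio of Igf2 to Igf2r went from 0.131 to 0.184 in the day 0 libraries to 7.65 to 9.47 in the day 10 libraries. At day 0 the receptor transcript outnumbered its ligand's, and at day 10 the ligand's outnumbered the receptor's.

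In mouse tissues Igf2r is an imprinted gene, expressed from the maternal copy, and the antisense RNA Airn, which starts within it, silences the paternal copy. Airn was at 1.37 to 2.09 CPM at day 0 and 33.6 to 47.6 CPM at day 10 (log2 4.51 ± 0.17, adjusted p = 1.14e-11), so both transcripts of the locus rose. In GENCODE M21, 114 of the 3597 exonic bases of Airn lie within the Igf2r gene and 0 are shared with its exons, so reads of spliced Airn and Igf2r can be told apart even where strand was not used. The span of the Airn gene covers the start of Igf2r, so this does not hold for unspliced RNA. The files hold no allelic counts.

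Igf2r and Igfbp4 had the highest summed TPM of the 10 genes at day 10, and their promoters are printed for that reason, from RefSeq on build GRCm38.p6 with 250 bases before and 50 after the start. Promoters of 9 of the 10 genes were found there. In capitals are matches to the E-box CACGTG, the same on both strands, and to the TATA box TATAAA on either strand. The motifs do not overlap each other.
Igf2r promoter, chr17:12769657-12769956, minus strand: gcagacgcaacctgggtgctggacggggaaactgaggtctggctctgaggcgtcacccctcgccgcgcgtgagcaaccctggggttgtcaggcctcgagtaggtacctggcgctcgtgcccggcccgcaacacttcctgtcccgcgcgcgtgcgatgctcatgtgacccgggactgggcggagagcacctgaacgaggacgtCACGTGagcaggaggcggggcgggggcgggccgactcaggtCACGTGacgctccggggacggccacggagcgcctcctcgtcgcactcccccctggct
Igfbp4 promoter, chr11:99040994-99041293, plus strand: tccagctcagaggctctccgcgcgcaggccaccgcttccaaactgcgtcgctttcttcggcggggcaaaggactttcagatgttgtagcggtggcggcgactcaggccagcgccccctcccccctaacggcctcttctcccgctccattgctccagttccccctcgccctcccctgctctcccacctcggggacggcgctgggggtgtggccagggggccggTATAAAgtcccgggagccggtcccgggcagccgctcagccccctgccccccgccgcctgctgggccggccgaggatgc
The Igf2r promoter holds 2 E-boxes and that of Igfbp4 holds none, but 1 TATA box. Of all 32851 promoters held there, 7.15% hold the E-box and 13.6% the TATA box. Among the other genes 1 of the 2 Igfbp2 promoters has 1 E-box and Igfbp6 has 1 TATA box. CpG dinucleotides number 34 in the Igf2r promoter, 27 in that of Igfbp4, 48 in that of Igf1r and 6 in that of Igf1, against a median of 7 over all promoters. These are letters in a window, not measured binding sites.

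Among the binding proteins, Igfbp2 (ENSMUSG00000039323, chromosome 1), which carries an integrin-binding sequence and is abundant in embryonic tissue, was the single gene of the family that fell. It was at 127, 124, 171 and 171 CPM at day 0 and at 58.7, 80.0, 68.7 and 53.6 CPM at day 10. Day 0 libraries 3 and 4 were higher than 1 and 2, and even the latter lay above all day 10 values. The fall was 1.19 ± 0.15 on the log2 scale (log2 -1.19, adjusted p = 3.21e-05) and did not pass the test for a change over 2-fold (adjusted p = 0.0915). On TPM, with a pseudocount of 0.1, its log2 change was -0.78, and with the length trend removed -0.75. Relative to the median of all genes these were -1.23 and -0.75, against -1.24 on counts.

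Igfbp5 (ENSMUSG00000026185, chromosome 1), a matrix-bound binding protein of muscle and connective tissue, rose most of the 9 genes tested. It was at 7.56, 6.55, 5.98 and 5.04 CPM at day 0. At day 10 it was at 1275, 1041, 963 and 1194 CPM, so that every day 10 library was far above every day 0 library. The fold change was 179. The log2 change was 7.49 ± 0.14 (adjusted p = 1.42e-13).

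Igfbp4 (ENSMUSG00000017493, chromosome 11), a binding protein cut by PAPP-A and known as an inhibitor of IGF action, rose from 24.98, 28.5, 31.0 and 33.8 CPM to 813, 646, 701 and 698 CPM. Its log2 change was 4.59 ± 0.10 (adjusted p = 1.98e-13), and its summed TPM at day 10, 699 ± 115, was the highest of the 10 genes. That place rests on the short transcript Igfbp4-205, since among full-length transcripts Igf2r-201 was at 452 ± 44 TPM (392 to 492) and Igfbp4-201 at 368 ± 26 TPM (345 to 405). Igfbp3 (ENSMUSG00000020427, chromosome 11), the main IGF carrier of adult serum, rose from 20.3, 23.3, 23.8 and 27.8 CPM to 229, 169, 218 and 212 CPM (log2 3.12 ± 0.11, adjusted p = 3.22e-11). For both genes the day 10 libraries lay close together relative to the distance from day 0.

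Igfbp7 (ENSMUSG00000036256, chromosome 5) encodes a secreted protein that binds IGFs only weakly and is abundant in vessels. It had 2, 1, 3 and 3 counts at day 0. At day 10 it was at 11.2, 7.47, 10.7 and 10.7 CPM, from 611 counts in all, so its day 0 level is close to the limit of detection. Its log2 change was 5.79 ± 0.31 (adjusted p = 4.05e-10). Igfbp6 (ENSMUSG00000023046, chromosome 15), which prefers IGF2, was too low to test, with 0, 0, 0 and 5 counts at day 0 and 3, 0, 3 and 5 at day 10. Igfbp1, the remaining gene of the family, had 0 counts in every day 0 library and 15.6 to 34.1 CPM at day 10 (adjusted p = 1.22e-06). Taking 3 counts summed over day 0 as its floor, Igfbp1 was at least 467-fold higher.

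By share of their summed TPM, Igfbp1 to Igfbp7 changed in make-up as well as amount. The sum went from 260 ± 31 TPM at day 0 to 1514 ± 142.9 at day 10, a ratio of 5.81. At day 0 Igfbp2 held 83.8 ± 2.9% of it and Igfbp4 9.07 ± 2.64%. At day 10 Igfbp4 held 46.0 ± 3.0%, Igfbp5 28.7 ± 1.9%, Igfbp3 12.6 ± 1.5% and Igfbp2 8.56 ± 2.24%. The day 10 share of Igfbp4 leans on the short transcript Igfbp4-205, at 298 ± 92 TPM. Full-length Igfbp4-201 was at 368 ± 26 TPM and full-length Igfbp5-201 at 287 ± 37 TPM. The ranges of the Igfbp2 share, 80.3 to 87.2% and 6.49 to 11.2%, were far apart. These are descriptions with no test, since the genes were chosen with earlier results known.

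**Figure D2:**
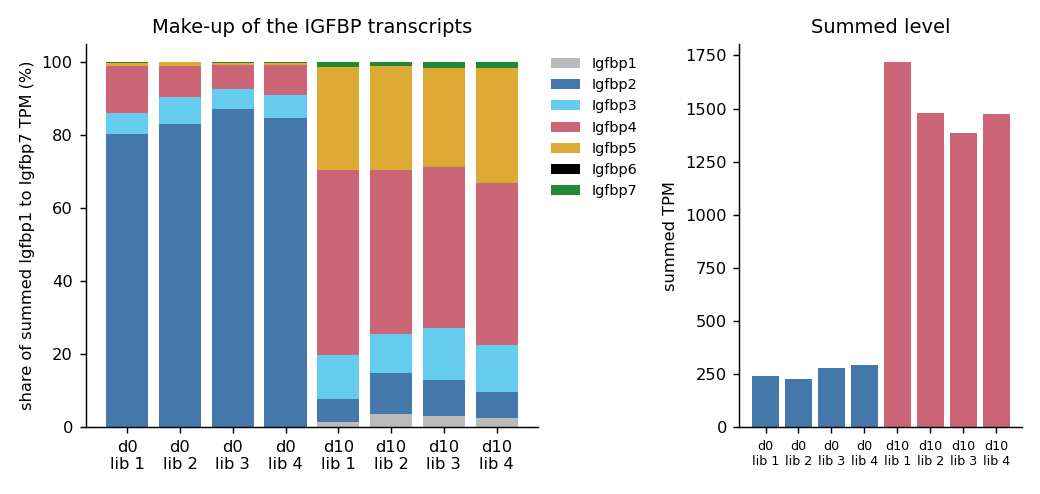
Left, share of each Igfbp gene in the summed TPM of Igfbp1 to Igfbp7, by library (d0, day 0; d10, day 10). Right, that summed TPM. Igfbp2 holds 80.3 to 87.2% in the day 0 libraries and 6.49 to 11.2% in the day 10 libraries, where the sum is 5.81 times higher.

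Ordered by TPM, Igfbp2 led at day 0 with 219 ± 32, without overlap with the next gene. Igf2r (31.1 ± 1.3), Igfbp4 (23.3 ± 5.6), Insr (19.9 ± 2.2), Igfbp3 (16.3 ± 1.9) and Igf1r (14.7 ± 0.8) followed, and each overlapped its neighbour in this order. Igf1 (1.94 ± 0.59) and Igfbp5 (1.79 ± 0.42) overlapped at a lower level, as did Igfbp7 (0.286 ± 0.117) and Igfbp6 (0.131 ± 0.261). At day 10 the order was Igfbp4, Igf2r (459 ± 45), Igfbp5 (435 ± 50), Igfbp3 (190 ± 20), Insr (143.9 ± 30.6), Igfbp2 (128 ± 28), Igf1r (69.8 ± 10.0), Igf1 (26.7 ± 6.1), Igfbp7 (21.6 ± 3.3) and Igfbp6 (0.386 ± 0.264). There the pairs Igf2r and Igfbp5, Igfbp3 and Insr, Insr and Igfbp2, and Igf1 and Igfbp7 overlapped, and the other neighbours did not. The day 10 place of Insr rests on the short transcript Insr-205, at 104.7 ± 26.9 TPM. Full-length Insr-201 was at 32.5 ± 4.5 TPM, below Igf1r-201 at 49.3 ± 7.0.

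**Figure D3:**
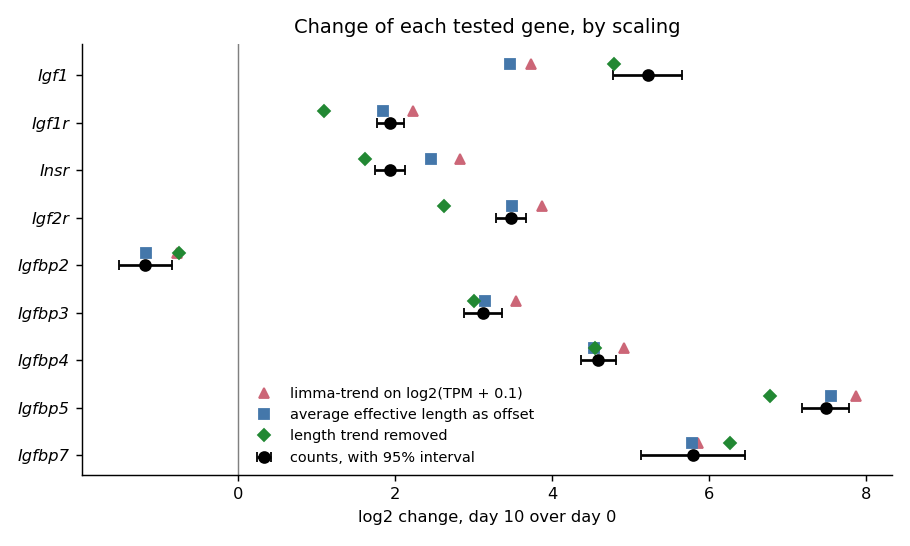
Log2 change, day 10 over day 0, of the 9 genes tested. Black points are the edgeR estimate on counts with its 95% interval, and coloured points are the estimates on TPM, with the average effective length as an offset and with the length trend removed. Igfbp2 is below 0 and the other 8 genes above 0 under all 4, while their sizes differ, as for Igf1r (1.09 to 2.23), Insr (1.61 to 2.83) and Igf1 (3.46 to 5.22).

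Single libraries often stood at one end of their day, library 2 for 8 and library 1 for 7 of the 9 genes tested at day 10, and each day 0 library for 4 or 5. Day 10 library 2 was the highest for Igf1r, Insr and Igfbp2 and the lowest for Igf1, Igf2r, Igfbp3, Igfbp4 and Igfbp7. Library 2 had the lowest summed TPM of the fibroblast markers (3115 against 4167 to 5126 in the others), the smooth muscle and pericyte markers (652 against 822 to 1041) and the macrophage markers (87.6 against 137 to 163). It had the highest sum of yolk sac and hepatic endoderm markers (1550 against 522 to 1059) and of neural markers (213 against 82.8 to 88.7). The part of these cell types in the values was not tested. Without that library all 9 calls held, as they did without each of the other 7 libraries in turn.

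Markers of cell types known to express these genes rose with them. Among all genes tested, 42.7% were called higher and 39.4% lower. Of 8 markers per list, 7 of 7 tested fibroblast markers rose, with a summed TPM of 53.7 to 56.2 at day 0 and 3115 to 5126 at day 10. For smooth muscle and pericytes 7 of 8 rose (25.2 to 33.5 and 652 to 1041 TPM), for endothelium 8 of 8 (20.1 to 26.7 and 218 to 270 TPM) and for macrophages, a known source of Igf1, 7 of 8 (4.94 to 7.65 and 87.6 to 163 TPM). For yolk sac and hepatic endoderm, a known source of Igf2 and Igfbp1, 6 of 8 rose (69.7 to 75.9 and 522 to 1550 TPM), for mesothelium 8 of 8 (44.97 to 74.4 and 277 to 369 TPM) and for cardiomyocytes 7 of 7 (27.1 to 31.1 and 327 to 573 TPM). Neural markers rose in 3 of 8 cases and fell in 2, with sums of 197 to 214 TPM at day 0 and 82.8 to 213 TPM at day 10. At day 0 the markers Dpt of fibroblasts, Adgre1, C1qb and Lyz2 of macrophages, Alb of hepatic endoderm and Muc16 of mesothelium had 0 counts, and at day 10 no marker did. The part of each cell type in the changes was not tested.

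Within the genes, the share of each transcript in the gene's counts was compared for the 14 transcripts that held at least 5% of their gene's counts on either day, in genes with more than 1 such transcript. By the two-sided exact permutation test 0 of the 14 passed after adjustment over them, and 3 had the smallest p the design allows, 0.0286 (adjusted p = 0.133). These 3 were Igf1-202, Igf1-206 and Insr-204. Igf1-202, a transcript of 7052 bases, held 66.2, 63.7, 65.3 and 73.5% of Igf1 counts at day 0 and 95.4, 96.4, 96.0 and 95.6% at day 10. Igf1-206 held 33.7, 19.0, 9.15 and 12.1% at day 0 and 1.99, 1.33, 1.39 and 2.18% at day 10, without overlap. At day 0 these shares rest on the 95 counts of the gene.

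Igf1-206 includes a 52-base coding exon that alters the reading frame of the carboxy-terminal E peptide, the part of the precursor cut off from mature IGF1. In GENCODE M21 the exon lies at chr10:87915298-87915349 on the plus strand (GRCm38) and is exon 4 of Igf1-206, and it is also in Igf1-203 and Igf1-208. It is printed in capitals, between 15 bases of its neighbours, since it is what separates these transcripts from Igf1-202 in the coding sequence of the E peptide:
Igf1-206 52-base exon: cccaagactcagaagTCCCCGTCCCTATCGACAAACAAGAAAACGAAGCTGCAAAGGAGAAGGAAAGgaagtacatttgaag
All transcripts with the exon together held 19.5 ± 10.4% of Igf1 counts at day 0 (18.1 counts over the 4 libraries) and 1.72 ± 0.43% at day 10 (75.2 counts). By TPM, which accounts for their short length, they held 58.6 ± 24.3% of Igf1 at day 0 (30.6 to 88.1%) and 18.7 ± 3.8% at day 10 (15.1 to 22.8%), so the share at day 10 depended on the scale, while it was lower than at day 0 on both, without overlap.

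Since the design allows no p below 0.0286, not passing does not show that a share was stable, and the shares of the other genes are given as values. Igfbp2-201 held 79.3 ± 6.7% and 78.5 ± 3.4% of Igfbp2 counts, and Igfbp4-201 89.7 ± 8.6% and 92.4 ± 1.4% of Igfbp4 counts. The non-coding Igfbp5-202, all of whose 4281 bases lie within exons of Igfbp5-201, held 19.9 ± 14.7% and 26.6 ± 2.1% of Igfbp5 counts. Igfbp4-205, a 489-base transcript, held 6.41 ± 1.497% of Igfbp4 counts at day 10 but 298 ± 92 of its 699 TPM, so the Igfbp4 level in TPM leans on this short model. The full-length Igfbp4-201 alone was at 11.1 ± 2.0 TPM at day 0 and 368 ± 26 at day 10.

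**Figure D4:**
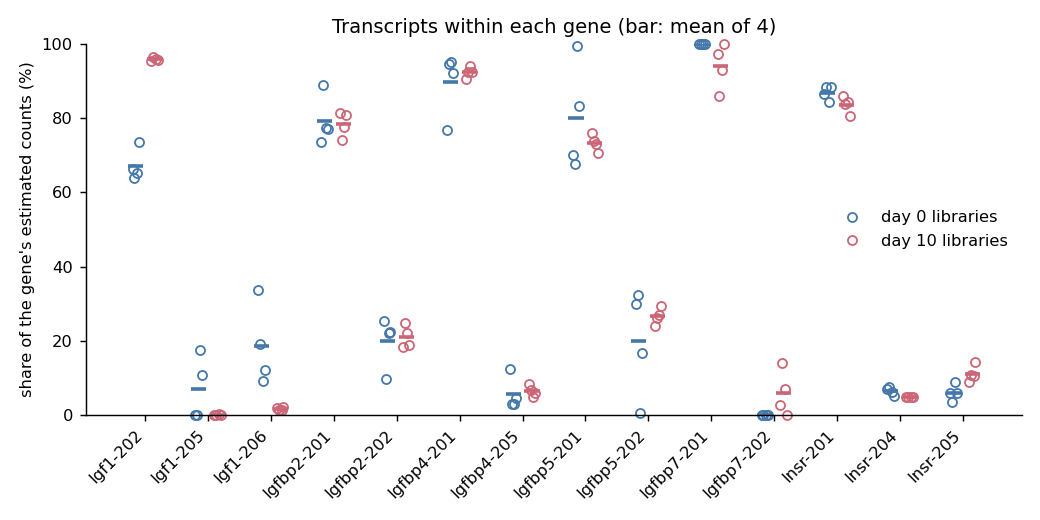
Share of the gene's estimated counts held by each of 14 transcripts, with circles for libraries and bars for the mean of 4. Igf1-202 lies at 63.7 to 73.5% at day 0 and 95.4 to 96.4% at day 10, while the leading transcripts of Igfbp2, Igfbp4, Igfbp5 and Insr overlap between days.

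The release of IGFs from binding proteins was followed in 11 proteases and inhibitors, of which 7 rose, 3 fell and 1 did not pass, with a median log2 change of 3.06. Among all genes tested 42.7% rose and 39.4% fell. Pappa, which encodes PAPP-A, the protease of IGFBP4 and IGFBP5, rose from 0.269 ± 0.082 to 114 ± 8.5 CPM (log2 8.69 ± 0.15, adjusted p = 1.44e-14). Adam12, a metalloprotease that cuts IGFBP3 and IGFBP5, rose by 9.88 ± 0.28 and Mmp2, a gelatinase, by 5.87 ± 0.17 on the log2 scale. Stc1 and Stc2, whose products inhibit PAPP-A, fell, Stc1 from 29.6 ± 7.0 to 16.7 ± 5.0 CPM (log2 -0.83 ± 0.22, adjusted p = 0.00472) and Stc2 from 39.0 ± 4.8 to 25.1 ± 10.8 CPM (log2 -0.63 ± 0.26, adjusted p = 0.0467). Days overlapped for both genes, and the Stc1 call ended on TPM (adjusted p = 0.132 and 0.136 at the 2 pseudocounts). Timp1, a metalloprotease inhibitor, fell (log2 -0.98 ± 0.21), but did not pass once the trend with transcript length was removed (adjusted p = 0.156). Htra1, a serine protease, was at 46.8 ± 7.8 and 37.5 ± 8.0 CPM and did not pass (adjusted p = 0.0840, 95% interval of the log2 change -0.68 to 0.03).

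Of 15 receptor adaptors and dampers 12 rose, 2 fell and 1, Shc1, did not pass (median log2 1.24). Of all genes tested 42.7% rose and 39.4% fell. Both main docking proteins rose, Irs1 from 6.95 ± 0.94 to 189 ± 6.4 CPM (log2 4.75 ± 0.09, adjusted p = 3.58e-14) and Irs2 from 17.1 ± 0.6 to 133 ± 10 CPM (log2 2.96 ± 0.08, adjusted p = 4.75e-13). Grb10, an imprinted adaptor that dampens signalling of the insulin and IGF1 receptors, rose from 177 ± 13 to 1440 ± 92 CPM (log2 3.02 ± 0.08). Gab1, a docking protein shared with other growth factor receptors, fell from 244 ± 5.5 to 73.9 ± 6.0 CPM (log2 -1.72 ± 0.07, adjusted p = 1.66e-11). Grb2, the adaptor to RAS, was called lower on counts (log2 -0.30 ± 0.07). Once the trend with transcript length was removed, its log2 change was 0.11 (adjusted p = 0.154).

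Downstream, changes were smaller by their median. Of 25 genes of the PI3K, AKT, mTOR and FOXO branch 17 rose, 4 fell and 4 did not pass, with a median log2 change of 0.36, and after removal of the length trend 9 rose and 9 fell. Among all genes tested 42.7% rose and 39.4% fell on counts. On counts 5 of the 25 rose by more than 2-fold, as did 24.1% of all genes tested. Gsk3b, a kinase that AKT inhibits, rose by 1.62 ± 0.06, Pik3r1, a regulatory subunit of PI3K, by 2.09 ± 0.09 and the kinase gene Akt1 by 1.46 ± 0.09 on the log2 scale. Pik3cb, a catalytic subunit, fell from 67.1 ± 2.8 to 38.7 ± 7.4 CPM (log2 -0.80 ± 0.11, adjusted p = 2.12e-05). Foxo1, a transcription factor that AKT holds out of the nucleus, was called lower on counts (log2 -0.38 ± 0.08, adjusted p = 0.000371). On TPM its log2 change was 0.046 and 0.050 at pseudocounts of 1 and 0.1 and did not pass (adjusted p = 0.721 and 0.726). The median of all genes was itself 0.40 and 0.45 on TPM, against 0.06 on counts, so Foxo1 lay below the median on both scales. The 2 other genes that fell, named after their values were seen, were Mtor (log2 -0.27) and Gsk3a (log2 -0.32). On TPM only Pik3cb of the 25 was called lower, with Mtor at 18.1 ± 1.4 TPM at day 0 and 17.8 ± 1.0 at day 10, and Gsk3a at 26.9 ± 2.4 and 29.8 ± 2.2.

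Genes that share the lysosomal task of Igf2r moved in both directions. Of 12 genes of mannose 6-phosphate tagging and sorting 3 rose, 5 fell and 4 did not pass, with a median log2 change of 0.05, near that of all genes tested. Among all genes tested 42.7% rose and 39.4% fell on counts. M6pr, the smaller mannose 6-phosphate receptor, was called lower on counts, with 190 ± 13 CPM at day 0 and 135 ± 4.6 CPM at day 10 (log2 -0.50 ± 0.06, adjusted p = 5.44e-06). On TPM it did not pass (log2 -0.08). There the median of all genes was 0.40 at a pseudocount of 1 and 0.45 at 0.1. Gga3, an adaptor that loads such receptors into vesicles, fell by 0.84 ± 0.08 on the log2 scale (log2 -0.84 on counts, and -0.02 on TPM, where it did not pass) and the retromer subunit Vps29 by 0.56 ± 0.07 (log2 -0.56, or -0.07 and no longer called after removal of the length trend). Sort1, which encodes sortilin, rose by 1.93 ± 0.07 on the log2 scale. Ap1g1, a clathrin adaptor subunit, was called higher on counts (log2 0.23 ± 0.06) and lower after removal of that trend (log2 -0.28, adjusted p = 0.000371). On TPM 7 of the 12 rose and 1 fell. Of all 15097 genes tested, 7864 rose and 4096 fell on TPM (pseudocount 1).

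**Figure D5:**
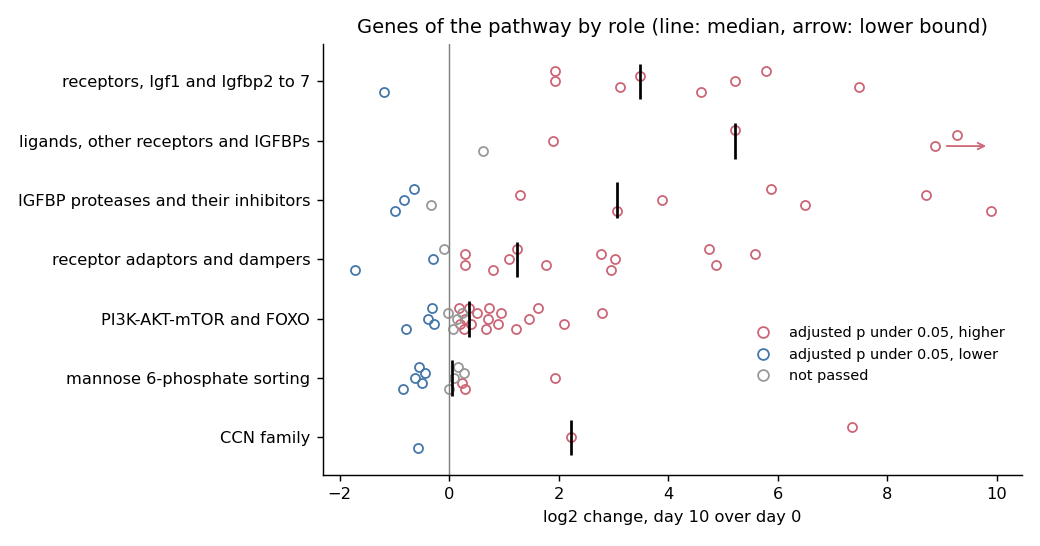
Log2 change, day 10 over day 0, of each tested gene by list, with the median as a line. The arrow marks Igfbp1, drawn at its lower bound because it had 0 counts at day 0. Binding proteins, ligands and proteases spread widely to higher values. The medians of the PI3K and sorting genes lie nearer 0, at 0.36 and 0.05, though 5 of 25 and 1 of 12 rose by more than 2-fold.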

How the data were processed

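Total RNA of 8 TC1 libraries was extracted with TRI Reagent and prepared with a SMART-Seq Total RNA kit and RiboGone depletion of ribosomal RNA, per the labels' protocols. Each library has 1 table of 126126 transcripts, deposited by the submitters. Per the file headers it holds the length, effective length, estimated count and TPM of each transcript. The submitters' processing notes name kallisto, version given as 1, and DESeq2. For the transcript reference and build, the sources used here give no name. As deposited, the estimated counts carry no scaling, whereas the deposited TPM values account for effective length.

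Transcripts were matched without version to GENCODE M21 (117992 matched, 93.6%, of which 98.3% had equal length). Unmatched transcripts held 1.15 to 1.23% of counts. Counts were summed over 32780 genes, rounded and tested with edgeR 4.0.16 in R 4.3.3 (filterByExpr, TMM, robust quasi-likelihood fit, glmTreat for changes over 2-fold, Benjamini-Hochberg, threshold 0.05). Alternatives used limma 3.58.1 on log2(TPM + 1) and log2(TPM + 0.1), and DESeq2 1.42.0. In further edgeR fits the average effective length, or a lowess curve of each library's deviation on effective length (the length trend), entered as an offset. On TPM the median log2 change of all genes was 0.40, against 0.06 on counts. SE is the log2 change over the square root of F. CPM are scaled by TMM. The fit was tested on simulated data in which few genes changed. That simulation does not check the scaling where most genes change. Kallisto shares reads between overlapping transcripts, so transcript values are estimates, and floors cover counting error only.

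The genes and lists were chosen with earlier results of these data known. All 10 genes, Igf2 and Airn are named, and from each list up to 3 called genes of smallest p in its main direction and 2 in the other. Further genes, such as Ins1, Ins2, Stc2, Htra1 and Shc1, were named after their values were seen. A few genes of the lists are not reported here and were left out of the list counts.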

Additional observations from a re-analysis of the deposited data

Results flagged for a closer look

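The CPM of each gene named by the rule above and the transcript shares gave 100 groups of 4 libraries over both days. Of these groups, 6 held a library whose distance from the nearest other exceeded the critical share of the group's range. Chance alone gives about 1 in 20. Of these, 3 were in day 10 library 2, with Igf1r at 336 CPM against 267 to 271 in the others, Igfbp7 at 7.47 CPM against 10.7 to 11.2 and Grb10 at 1304 CPM against 1470 to 1502. Day 0 library 4 held all day 0 counts of Igfbp6, at 0.327 CPM against 0. Day 0 library 1 had a share of Igfbp4-201 of 76.9% against 92.2 to 95.04%. Day 10 library 3 alone held counts of Igf1-205, at 0.197% of Igf1 counts against 0.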

How the results depend on the processing

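For the 9 genes tested, all 162 values under 18 alternatives kept their direction and their call. Over the genes named by the rule above, 12 of 630 values lost the call and 4 turned. Those that turned were Grb2 to 0.11 and Ap1g1 to -0.28 with the length trend removed, and Foxo1 to 0.046 (pseudocount 1) and 0.0501 (pseudocount 0.1) on TPM. Genes named after their values were seen, such as Mtor and Gsk3a, are not in this count. On TPM 65.8% of called genes were higher against 52.01% on counts. The median log2 change of all genes on TPM was 0.40 and 0.45 at pseudocounts of 1 and 0.1, and the TPM values are not centred on it. On TPM at both pseudocounts, called lower were 1 adaptor or damper, 1 PI3K branch gene, 1 sorting gene and 0 CCN genes, and 7 sorting genes were higher. With the length trend removed 9 PI3K branch genes were higher and 9 lower, and 1 adaptor or damper was lower. With no low-count filter 1 gene of the ligand and receptor list was lower. Leaving out 1 library moved the change of share over 0 for Igfbp2-201 (-2.64 to 2.49 percentage points), Igfbp2-202 (-2.14 to 3.06), Igfbp4-201 (-1.59 to 4.46) and Igfbp4-205 (-0.165 to 2.99), none of which had passed. By CPM per kilobase the day 0 ranks were 3 for Insr, 4 for Igfbp4, 7 for Igfbp5 and 8 for Igf1, and the day 10 ranks 5 for Igfbp2 and 6 for Insr. The lengths used there were weighted by TPM, so short transcripts weigh on these ranks too.

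Libraries share replicate numbers, but same-numbered libraries deviated together only weakly (r = 0.03 to 0.05 across genes, each library closest to its own number). With the replicate number as a block 6403 genes were higher and 5895 lower, against 6449 and 5950 without it, and the 9 genes were called alike. Counts limit Igf1 and Igfbp7 at day 0 and Igfbp6 on both days.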

Other observations

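The CCN family, matrix proteins with an IGFBP-like domain, was measurable in 3 of 6 members. Ccn4 rose from 1.12 ± 0.16 to 183 ± 27 CPM (log2 7.36 ± 0.16, adjusted p = 1.44e-13) and Ccn1 from 47.0 ± 4.4 to 221 ± 32 CPM (log2 2.23 ± 0.11). Ccn2 was called lower on counts, with 92.6 ± 12.2 CPM at day 0 and 62.7 ± 12.5 CPM at day 10 (log2 -0.56 ± 0.14, adjusted p = 0.00317), with overlapping days, and the call ended on TPM (adjusted p = 0.351 and 0.354).

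Igfbp2 and Igfbp5 lie tail to tail on chromosome 1 with 5457 bases between them in GENCODE M21, and they are the gene that fell and the gene with the steepest rise of the 9. Igfbp1 and Igfbp3 lie tail to tail on chromosome 11 with 3539 bases between them, and both rose.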
